A study of Saccharomyces cerevisiae with 8 samples.

Results

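DGY1735 and DGY1743 are evolved clones of the budding yeast Saccharomyces cerevisiae that both carry an amplification of the region around GAP1 on chromosome XI, each attributed by the study to the same mechanism, origin-dependent inverted-repeat amplification (ODIRA). The comparison used the 2 RNA-seq libraries of DGY1735 (ODIRA_A) and the 2 of DGY1743 (ODIRA_B), 4 of the 8 libraries of the series. The libraries were chosen by the strain in their titles and by no measured value. Both strains derive from FY4/S288C and carry a GFP and KanMX cassette that reports GAP1 copy number. Each is a single clone, and by the study's account DGY1735 was taken from its population after fewer generations of selection than DGY1743. The study also reports new single-nucleotide variants or small indels in the evolved strains, none of them within amplified genes. Strain, amplification, these variants and time of isolation therefore cannot be told apart here. The question addressed was how far the RNA of these strains differs within the amplified segments and beyond them.

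Cultures of both strains were grown in glutamine-limited chemostats with 800 µM glutamine at 30 °C. They were kept in continuous mode for 24 h at a doubling time of 5.8 h and treated with cycloheximide just before harvest. The study's methods describe duplicate chemostat cultures, so that the p-values measure the spread between 2 cultures of a clone and not between independent clones. The RNA comes from whole cultures, in which a smaller share of cells and less RNA per cell cannot be told apart.

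GAP1 encodes the general amino acid permease, which takes up most amino acids when the nitrogen supply is poor. It is controlled by nitrogen catabolite repression, in which the GATA factors Gln3 and Gat1 activate permease and catabolic genes when good nitrogen sources run short, and Dal80 and Gzf3 oppose them. In ODIRA, a replication error at short inverted repeats around an origin is thought to release a looped DNA that integrates again, so that neighbouring genes are amplified along with the selected one. Yeast also adjusts large gene groups together, among them the stress genes read by Msn2 and Msn4 and the ribosome biogenesis genes, which often respond in opposite directions.

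The upstream DNA of 5 genes is shown because these genes belong to the groups described below and carry the short motifs by which such groups are usually recognised. Each sequence runs from 300 to 151 bases before the start codon, 5′ to 3′ on the strand of the gene, in the R64 RefSeq genome. The positions are chrXV:231906-232055 on the minus strand for DDR2, chrVII:807807-807956 on the minus strand for NSR1, chrIX:408168-408317 on the plus strand for DAL4, chrIII:78070-78219 on the minus strand for AGP1 and chrXIII:637200-637349 on the plus strand for GCV2. Capitals mark, on either strand, AGGGG in DDR2 (stress response element), GATGAG in NSR1 (core of the PAC element of ribosome biogenesis genes), GATAAG in DAL4 and AGP1 (GATA factors), and TGACTC in GCV2 (Bas1, and also the core of the Gcn4 motif).
DDR2: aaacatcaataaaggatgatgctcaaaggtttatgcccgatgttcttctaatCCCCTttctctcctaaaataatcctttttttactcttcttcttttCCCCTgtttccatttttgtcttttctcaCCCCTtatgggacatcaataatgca
NSR1: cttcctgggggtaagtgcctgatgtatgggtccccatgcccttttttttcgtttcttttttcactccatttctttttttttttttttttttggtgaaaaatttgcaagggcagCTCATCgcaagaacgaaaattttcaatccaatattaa
DAL4: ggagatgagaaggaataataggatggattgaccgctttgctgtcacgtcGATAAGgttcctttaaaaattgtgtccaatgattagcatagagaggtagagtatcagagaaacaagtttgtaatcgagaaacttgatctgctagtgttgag
AGP1: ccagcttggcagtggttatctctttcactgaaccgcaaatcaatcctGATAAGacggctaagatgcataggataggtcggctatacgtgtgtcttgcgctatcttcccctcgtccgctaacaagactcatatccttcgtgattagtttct
GCV2: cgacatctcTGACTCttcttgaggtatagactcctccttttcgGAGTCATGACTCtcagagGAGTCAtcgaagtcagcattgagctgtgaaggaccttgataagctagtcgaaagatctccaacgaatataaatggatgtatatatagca

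The 4 libraries held between 10298053 and 14321240 counts over all gene rows, and between 9116777 and 12547447 over nuclear protein-coding genes, whose total set the scale. CPM below means counts per 1000000 of these nuclear counts after TMM scaling, and each log2 ratio is DGY1735 over DGY1743 with its standard error (SE). Of 6600 protein-coding genes, 5500 had a mean of at least 100 counts and were tested (edgeR quasi-likelihood test, Benjamini-Hochberg adjusted p under 0.05). Of these, 884 genes (16.1%) differed, 345 (6.27%) higher and 539 (9.8%) lower in DGY1735. A difference of at least 2-fold was seen for 244 of them (4.44%), 67 higher (1.22%) and 177 lower (3.22%). The count was 299 genes without DGY1743 replicate 2 and 559 without DGY1743 replicate 1, and DESeq2 gave 1086. DGY1743 replicate 2 thus decides many calls, and many results lost without it are given below.

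Outside the chromosome XI segments and the mitochondrial genome, 832 of 5379 nuclear genes (15.5%) differed, 339 higher (6.3%) and 493 lower (9.17%). Counts of called genes in the gene lists below are to be read against these shares. The median log2 ratio of these nuclear genes was 0.00. In 3375 of these 5379 genes (62.7%) the 2 libraries of one strain did not overlap those of the other, so that separation of the libraries alone says little. All 884 called genes of the comparison were separated in this way, so that separation adds nothing to a call. Replicates correlated at a Spearman's rho across genes of 0.988 in DGY1735 and 0.984 in DGY1743, against 0.938 to 0.957 between the strains.

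The amplified segments reach different distances on either side of GAP1. By the study's account the segment of DGY1735 is bounded by ALY1 and SIR1, and that of DGY1743 by VPS1 and ESL2. The study describes each of the 2 as a triplication. They share the stretch from NTR2 to ESL2 (chrXI:482171-630380), which holds GAP1. The stretch from VPS1 to VPS51 (chrXI:440608-478832) is amplified in DGY1743 only, and that from PCK1 to SKG1 (chrXI:631152-639968) in DGY1735 only. All coordinates are in R64.

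The 20 genes from VPS1 to VPS51 were all lower in DGY1735. Their median log2 ratio was -1.64, a 3.11-fold lower level, with a range of -2.19 to -0.97. The library medians of their deviation from the 4-library mean were -0.87 and -0.82 in DGY1735, against 0.88 and 0.78 in DGY1743. All 20 genes were called, and 19 without DGY1743 replicate 2. The smallest difference belonged to YKR012C, a reading frame on the opposite strand of PRY2, with 9.65 and 9.81 CPM in DGY1735 against 17.9 and 20.2 CPM in DGY1743 (-0.97, SE 0.189). Its adjusted p was 0.069 without DGY1743 replicate 2. The largest belonged to YKR015C, with 6.47 and 6.72 CPM in DGY1735 against 29.2 and 31.4 CPM in DGY1743 (-2.19, SE 0.183).

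When each gene of this stretch was tested against the median of the 20, only FOX2 differed. FOX2, a peroxisomal enzyme of fatty acid β-oxidation, lay 0.54 above the median on the log2 scale (SE 0.137, edgeR adjusted p = 0.0348). It had 43.8 and 44.1 CPM in DGY1735 and 102 and 86.1 CPM in DGY1743. Its distance from the median was no longer called without DGY1735 replicate 1 or without DGY1743 replicate 2, whereas DESeq2 called 3 genes of the stretch off its median.

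Among the 4 genes amplified in DGY1735 only, all were higher in DGY1735, with a median log2 ratio of 1.88 (3.68-fold). PCK1, which encodes phosphoenolpyruvate carboxykinase, the key step of gluconeogenesis, had 412 and 413 CPM in DGY1735 against 46.1 and 33.2 CPM in DGY1743. This was a 10.4-fold higher level (log2 ratio 3.38, SE 0.17, edgeR adjusted p = 3.41e-05). SKG1, a membrane protein linked to cell wall composition, had 311 and 339 CPM in DGY1735 against 71.9 and 76.8 CPM in DGY1743 (2.13, SE 0.115). The study places the end of the DGY1735 segment inside SIR1, next to SKG1, and describes the RNA of SKG1 as likely disrupted too. BAS1, the Myb-like activator of purine and histidine synthesis genes, had 602 and 496 CPM in DGY1735 against 178 and 176 CPM in DGY1743 (1.63, SE 0.139). UBP11, a ubiquitin-specific protease, had 140 and 131 CPM in DGY1735 against 58.8 and 67.6 CPM in DGY1743 (1.10, SE 0.127). The libraries of the strains did not overlap for any of the 4 genes, and all stayed called in every alternative tried.

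The genes at the limits of the DGY1735 segment were not called with all 4 libraries. The study places likely breakpoints of DGY1735 inside both, describes their RNA as disrupted and removed them from its analysis. Their values in DGY1735 are therefore not those of intact genes only. ALY1, an α-arrestin that sorts permeases, had 414 and 445 CPM in DGY1735 and 393 and 478 CPM in DGY1743 (-0.02, SE 0.14). SIR1, which acts in silencing of the mating-type loci, had 107 and 102 CPM in DGY1735 and 84.6 and 67.6 CPM in DGY1743 (0.45, SE 0.142, edgeR adjusted p = 0.0677). Without DGY1743 replicate 1 it was called higher in DGY1735 (0.62, adjusted p 0.0429).

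**Figure D1:**
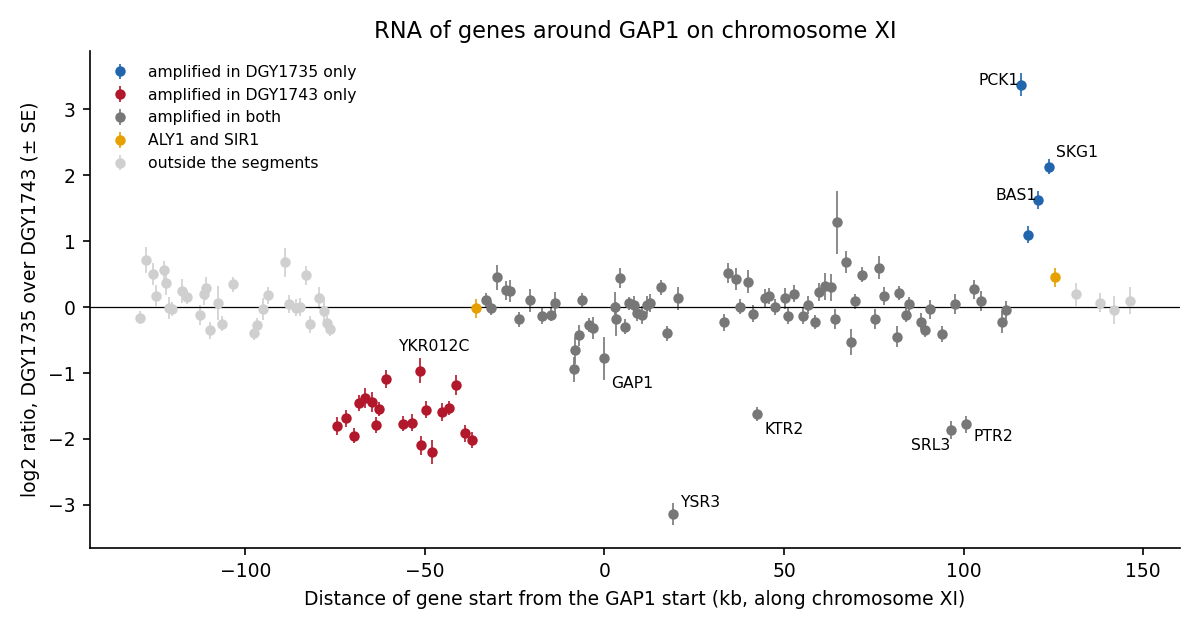
Log2 ratio of DGY1735 over DGY1743 (± SE) for tested genes around GAP1 on chromosome XI, by the distance of each start from the GAP1 start in kb. Genes nearer the beginning of the chromosome are not drawn. The genes amplified in DGY1743 only lie between -2.19 and -0.97, the 4 amplified in DGY1735 only between 1.10 and 3.38, and the genes amplified in both scatter around 0.01 with YSR3, SRL3, PTR2 and KTR2 well below.

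Over the stretch amplified in both strains, 74 of 78 genes were tested and their median log2 ratio was 0.01. Of these, 7 were called (9.46%, against 15.5% of nuclear genes outside the segments), 5 lower and 2 higher in DGY1735. The count was 4 without DGY1743 replicate 2 and 14 without DGY1735 replicate 2, and DESeq2 gave 13.

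The lower genes of this shared stretch had log2 ratios between -3.14 and -0.94. YSR3, a dihydrosphingosine 1-phosphate phosphatase, had 43.7 and 50.9 CPM in DGY1735 against 360 and 475 CPM in DGY1743 (-3.14, SE 0.172, edgeR adjusted p = 4.41e-05). SRL3, a suppressor of rad53 lethality, had 31.1 and 34.7 CPM in DGY1735 against 112 and 128 CPM in DGY1743 (-1.86, SE 0.14). PTR2, the importer of di- and tripeptides, had 20.7 and 22.0 CPM in DGY1735 against 75.8 and 71.1 CPM in DGY1743 (-1.78, SE 0.136). The strains did not overlap for any of these genes. KTR2, a Golgi mannosyltransferase named after its values were seen, had 93.7 and 92.0 CPM in DGY1735 against 272 and 299 CPM in DGY1743 (-1.62, SE 0.111). The fifth lower gene, YKR032W, also named after its values were seen, had a log2 ratio of -0.94 and was lost when either DGY1743 library was left out (adjusted p 0.0915 and 0.0631).

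The 2 higher genes of the shared stretch changed little. ECM4, an omega-class glutathione transferase, had 267 and 335 CPM in DGY1735 against 211 and 163 CPM in DGY1743 (0.69, SE 0.166). TRZ1, the endonuclease that trims the 3′ end of tRNA precursors, had 418 and 406 CPM in DGY1735 against 301 and 286 CPM in DGY1743 (0.49, SE 0.116). Neither kept its call without DGY1743 replicate 1 or without DGY1743 replicate 2, and TRZ1 lost it also without DGY1735 replicate 1.

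GAP1 itself (chrXI:515063-516871) was among the most abundant mRNAs of both strains. It had 10051 and 13976 CPM in DGY1735 and 21049 and 20099 CPM in DGY1743. Both DGY1735 libraries lay below both DGY1743 libraries, and such a separation was seen in 62.7% of nuclear genes outside the segments. The log2 ratio of GAP1 was -0.78 (SE 0.329) and did not pass the test (edgeR adjusted p = 0.145). DESeq2 called it with an adjusted p of 0.000203.

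DAL80, the GATA repressor that lies close to GAP1, had 792 and 1028 CPM in DGY1735 and 1631 and 1236 CPM in DGY1743 (-0.66, SE 0.205, edgeR adjusted p = 0.0684). It passed with DESeq2 (adjusted p = 0.00422) and without DGY1735 replicate 2 (0.00718). UTH1, a SUN family protein of the cell wall and mitochondria in the same stretch, had 456 and 357 CPM in DGY1735 and 311 and 287 CPM in DGY1743 (0.44, SE 0.149, edgeR adjusted p = 0.0828). It passed with DESeq2 (0.0448) and without DGY1735 replicate 2 (0.00452). For both genes the libraries of the strains did not overlap, as was the case for 62.7% of nuclear genes outside the segments.

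Outside the segments, SSD1, the RNA-binding protein that the study discusses, had 412 and 445 CPM in DGY1735 and 389 and 439 CPM in DGY1743. Its log2 ratio was 0.05 (SE 0.128), and the strains overlapped. RTT107 and YNL017C were looked up because the study lists variants of these strains there. RTT107, a scaffold of DNA damage repair, had 98.1 and 102 CPM in DGY1735 and 119 and 123 CPM in DGY1743 (-0.27, SE 0.112, edgeR adjusted p = 0.134). YNL017C was too low to test, with 9 and 9 counts in DGY1735 and 5 and 6 counts in DGY1743.

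BAS1 RNA was higher in DGY1735, and the genes that Bas1 is known to activate with Pho2 were examined next. Of 20 tested genes of purine, one-carbon and histidine synthesis, 3 were called, all lower in DGY1735, and the median log2 ratio of the list was -0.02. This share is close to the 15.5% called over nuclear genes outside the segments. The called genes encode subunits of glycine decarboxylase, which feeds one-carbon units from glycine into folate. GCV2 had 259 and 289 CPM in DGY1735 against 506 and 398 CPM in DGY1743 (-0.72, SE 0.151). GCV3 had 195 and 194 CPM in DGY1735 against 323 and 321 CPM in DGY1743 (-0.73, SE 0.109). GCV1 had 251 and 218 CPM in DGY1735 against 366 and 393 CPM in DGY1743 (-0.70, SE 0.126). GCV2 lost its call without DGY1743 replicate 1 (adjusted p 0.0764) and GCV1 without DGY1743 replicate 2 (0.0776). The other 17 genes, among them every tested ADE and HIS gene of the list, had log2 ratios between -0.33 and 0.45. Without DGY1735 replicate 2, 3 genes of the list were called higher, and its median was 0.18. TGACTC occurred within 300 bases before the start codon of 18 of the 20 genes (90%), against 8.09% of 6572 nuclear genes.

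The largest difference between the strains lay in the mitochondrial genome. Of 28 mitochondrial protein-coding genes, 21 passed the count filter and were tested, and all 21 were lower in DGY1735. Their median log2 ratio was -8.00 (256-fold), with a range of -8.84 to -6.91. A gene could pass this filter through DGY1743 alone, which fixes the direction of such a gene. All mitochondrial genes together had 8732 and 6698 counts in the DGY1735 libraries, against 1492166 and 2187774 in those of DGY1743. Mitochondrial genes took 0.0957% and 0.0534% of the protein-coding counts in DGY1735, against 13.16% and 19.21% in DGY1743, which is 0.0745% ± 0.0299 against 16.2% ± 4.28 (SD, n = 2 each). These genes were left out of the library scaling so that their share did not move the nuclear values.

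COX1, which encodes the catalytic subunit of cytochrome c oxidase, had 204 and 113 CPM in DGY1735 against 29171 and 45330 CPM in DGY1743. Its log2 ratio was -7.88 (SE 0.559, edgeR adjusted p = 0.000107). AI5_ALPHA, AI4 and AI3, reading frames of COX1 introns, had log2 ratios of -7.98, -8.00 and -8.03. These frames overlap COX1 on the same strand, and a read over an overlap counts for each of them, so that they are not independent of COX1. ATP8, a short subunit of the ATP synthase and the gene with the most negative ratio, had 2.38 and 1.11 CPM in DGY1735 against 584 and 945 CPM in DGY1743 (-8.84, SE 0.386). It passed the count filter through DGY1743, and its ratio rests on few counts in DGY1735. Without DGY1743 replicate 2, 20 mitochondrial genes passed the count filter and all 20 were called, and with a replicate block 20 of the 21 were called. No tested mitochondrial gene of DGY1735 reached the level it had in either library of DGY1743.

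**Figure D2:**
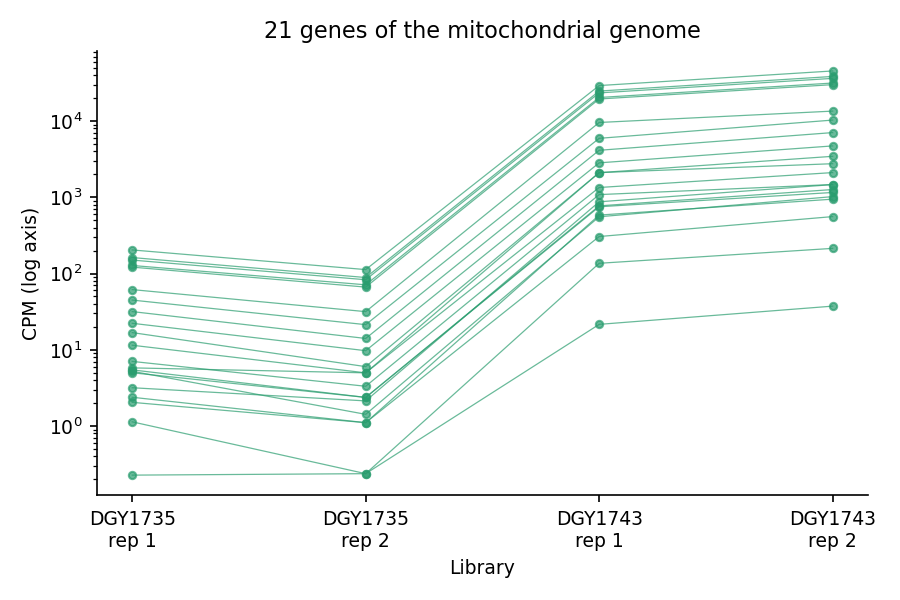
CPM (log axis) of the 21 tested genes of the mitochondrial genome in each of the 4 libraries, with 1 line per gene. Every line is lower in both DGY1735 libraries than in both DGY1743 libraries. COX1, the highest line, had 204 and 113 CPM in DGY1735 and 29171 and 45330 CPM in DGY1743.

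Nuclear genes that serve the mitochondrial genome and respiration showed far smaller differences. None of 18 tested genes of mitochondrial DNA maintenance and transcription, 12 of the tricarboxylic acid cycle, 12 of the cytochrome bc1 complex with cytochrome c and 17 of the ATP synthase was called by edgeR. At an unadjusted p under 0.05, 5, 4, 1 and 8 genes of these lists differed, and DESeq2 called 1, 1, 0 and 1. Of 74 mitochondrial ribosomal protein genes, 2 were lower, with a list median of 0.02. These were RSM10 (-0.75), which lost its call without DGY1743 replicate 2 (0.0529), and MRPL13 (-1.44), which lies in the stretch amplified in DGY1743 only.

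Of 10 nuclear genes of cytochrome c oxidase, 3 were lower and 1 was higher, with a median of -0.26. COX26 (40.3 and 39.8 CPM in DGY1735 against 66.4 and 65.6 CPM in DGY1743, -0.72) held in every alternative. COX7, COX9 and COX5B did not, and COX5B lay on chromosome IX, which is described below. In the succinate dehydrogenase list 3 of 11 genes were higher, with a median of 0.28. They were the paralogs of the standard subunits. YJL045W, a paralog of the flavoprotein subunit, had 59.7 and 70.8 CPM in DGY1735 against 27.3 and 22.4 CPM in DGY1743 (1.39, SE 0.163). SHH3 and SHH4, paralogs of membrane subunits, had log2 ratios of 1.56 and 0.60 and lost their calls without DGY1743 replicate 2 (0.0679 and 0.127).

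The retrograde response is the induction of nuclear genes by Rtg1 and Rtg3 when mitochondria fail, and CIT2, the peroxisomal citrate synthase, is its standard readout. CIT2 was lower in DGY1735, with 268 and 408 CPM against 693 and 990 CPM in DGY1743 (-1.32, SE 0.243, edgeR adjusted p = 0.0119). Of 13 genes of the list, 3 were called, all lower, and 12 had a negative ratio, with a median of -0.25. PDH1, a mitochondrial protein of propionate metabolism, and DLD3, which oxidises lactate and 2-hydroxyglutarate, had log2 ratios of -0.78 and -0.68. Without DGY1743 replicate 2 none of the 3 was called, and CIT2 had an adjusted p of 0.119. PDH1 was lost also without DGY1735 replicate 2 (0.0893) and without DGY1743 replicate 1 (0.0587). RTG1, RTG2, RTG3, MKS1, CIT1, ACO1, IDH1, IDH2, PYC1 and ADH3 were not called by edgeR, with log2 ratios between -0.55 and 0.42. DESeq2 called IDH2 (-0.55, adjusted p 0.0268) and PYC1 (0.43, 0.0341), and edgeR called IDH2 with a replicate block (0.0292) and without DGY1735 replicate 1 (0.0179).

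Chromosome IX stood apart from the other chromosomes. The median log2 ratio of its 196 tested genes was 0.30, a 1.23-fold higher level in DGY1735, and 162 of the 196 ratios were positive. The medians of the other 15 nuclear chromosomes, with the genes of the chromosome XI segments left out, lay between -0.02 and 0.02. The library medians of chromosome IX were 0.14 and 0.14 in DGY1735, against -0.15 and -0.16 in DGY1743, whereas on the other chromosomes no library deviated beyond -0.05 and 0.03. Along the chromosome, the medians of 4 successive groups of 49 genes were 0.25, 0.38, 0.32 and 0.20, and the leftmost 11 genes had a median of 0.03. The other 185 genes had a median of 0.32.

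Of the genes on chromosome IX, 46 were higher and 10 lower in DGY1735, or 28.6% called against 15.5% of all nuclear genes outside the segments. Of the 196 genes, 13 were called without DGY1743 replicate 2 and 28 without DGY1743 replicate 1, while the median was 0.32 in both cases. Leaving the chromosome out gave 776 of 5183 genes (15%), 293 higher (5.65%) and 483 lower (9.32%). POT1, the peroxisomal thiolase of β-oxidation, had 61.8 and 71.3 CPM in DGY1735 against 29.9 and 27.5 CPM in DGY1743 (1.21, SE 0.144). YIL053W, a glycerol-1-phosphatase, and OM45, a mitochondrial outer membrane protein, were named after their values were seen. YIL053W had 784 and 570 CPM in DGY1735 against 215 and 208 CPM in DGY1743 (1.68, SE 0.172). OM45 had 333 and 369 CPM in DGY1735 against 175 and 124 CPM in DGY1743 (1.23, SE 0.172). Each of the 3 genes differed by far more than the chromosome median.

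**Figure D3:**
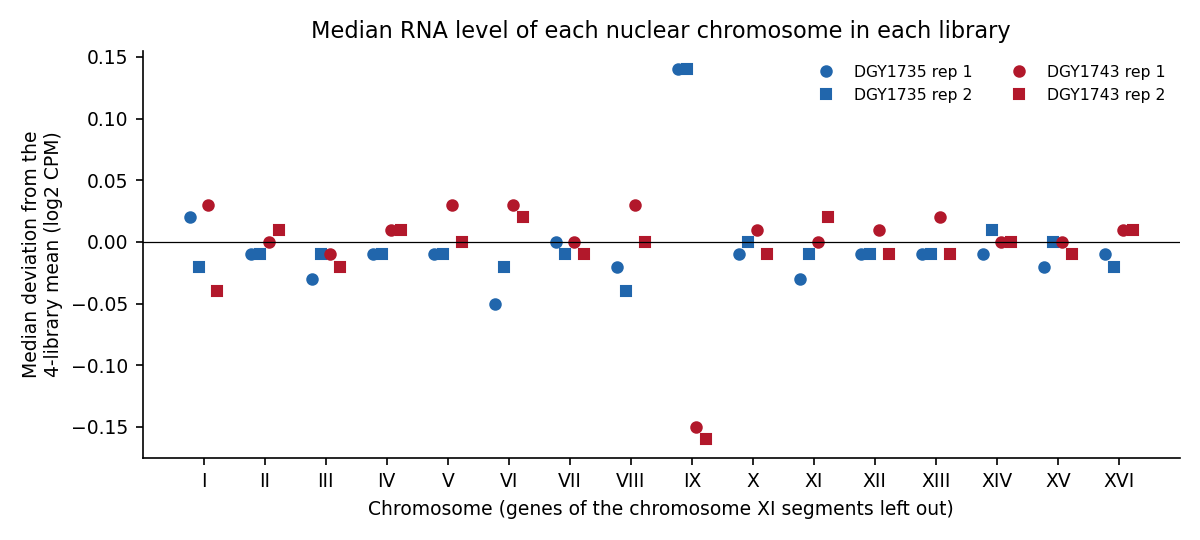
Median deviation of the tested genes of each nuclear chromosome from the 4-library mean (log2 CPM), for each library. Genes of the chromosome XI segments were left out. Chromosome IX had 0.14 and 0.14 in DGY1735 against -0.15 and -0.16 in DGY1743, and all other chromosomes lay between -0.05 and 0.03.

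The 10 genes with the most negative log2 ratios outside the segments were called in every alternative. NDJ1 (chrXV:116396-117454), which ties telomeres to the nuclear envelope in meiosis, had 1.70 and 1.27 CPM in DGY1735 against 67.5 and 69.8 CPM in DGY1743. Its log2 ratio of -5.55 (SE 0.207, edgeR adjusted p = 1.82e-05) was the most negative of the nuclear genes. SRD1, linked to the processing of ribosomal RNA precursors, had 2.16 and 1.35 CPM in DGY1735 against 54.0 and 56.6 CPM in DGY1743 (-5.02, SE 0.233). A diagram of the study shows SRD1 disrupted by a Ty element in FY4, so that its counts are those of the annotated reading frame and not of an intact gene. NDJ1 had 15 and 16 counts in DGY1735 and SRD1 had 19 and 17. Both genes thus passed the count filter only through DGY1743, which fixes their direction. YNR064C, an epoxide hydrolase, had 2.73 and 3.40 CPM in DGY1735 against 46.1 and 50.6 CPM in DGY1743 (-3.96, SE 0.201). With 24 and 43 counts in DGY1735, it too passed the filter only through DGY1743.

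Metabolic genes followed in this group. ARO10, the decarboxylase of the Ehrlich pathway, by which aromatic and branched-chain amino acids serve as nitrogen source, had 9.88 and 12.2 CPM in DGY1735 against 161 and 165 CPM in DGY1743 (-3.87, SE 0.153). PHO89, a sodium-coupled phosphate importer, had 21.2 and 13.5 CPM in DGY1735 against 194 and 271 CPM in DGY1743 (-3.76, SE 0.25). Its neighbours on chromosome II were lower too, PCA1 with a log2 ratio of -1.22 and MAL33 with -1.72. JLP1, which releases sulfur from sulfonates, had 34.3 and 48.0 CPM in DGY1735 against 362 and 447 CPM in DGY1743 (-3.29, SE 0.193).

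Of the remaining genes, 3 encode surface or membrane proteins. SED1, a major structural protein of the cell wall, had 8.97 and 9.97 CPM in DGY1735 against 115 and 111 CPM in DGY1743 (-3.57, SE 0.148). NCW2, another wall protein, had 10.2 and 10.4 CPM in DGY1735 against 89.1 and 140 CPM in DGY1743 (-3.47, SE 0.241). RTA1, a membrane protein of sterol and drug resistance, had 2.16 and 3.72 CPM in DGY1735 against 30.8 and 40.8 CPM in DGY1743 (-3.56, SE 0.282). YBR056W-A, the tenth gene, had a log2 ratio of -3.66. RTA1, with 19 and 47 counts in DGY1735, and YBR056W-A, with 37 and 75, also passed the count filter only through DGY1743.

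The 10 largest positive ratios were smaller, from 1.72 to 2.73. NCA3 (chrX:193860-194873), of the SUN family and named for its effect on mitochondrial ATP6 and ATP8 expression, had 46.8 and 40.5 CPM in DGY1735 against 6.64 and 6.51 CPM in DGY1743. This was a 6.61-fold higher level (log2 ratio 2.73, SE 0.181, edgeR adjusted p = 9.06e-05). RRT12, a protease of spore wall assembly, had 17.1 and 15.1 CPM in DGY1735 against 3.42 and 2.99 CPM in DGY1743 (2.32, SE 0.234). ANS1, a putative surface protein, had 25.1 and 15.1 CPM in DGY1735 against 4.13 and 2.78 CPM in DGY1743 (2.52, SE 0.334). The counts in DGY1743 were 66 and 61 for NCA3, 34 and 28 for RRT12, and 41 and 26 for ANS1, so that these genes passed the count filter only through DGY1735. ANS1 lost its call without DGY1743 replicate 2, where its log2 ratio was 2.26.

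GRE1, a hydrophilin induced by osmotic stress, had 277 and 472 CPM in DGY1735 against 110 and 46.1 CPM in DGY1743 (2.26, SE 0.398). SIP18, a phospholipid-binding hydrophilin, had 826 and 1184 CPM in DGY1735 against 324 and 221 CPM in DGY1743 (1.88, SE 0.24). HBT1, a protein of polarised growth, had 307 and 395 CPM in DGY1735 against 120 and 93.4 CPM in DGY1743 (1.72, SE 0.172). Neighbouring genes were higher too, PAI3 (1.27) and YMR175W-A (1.82) beside SIP18 and FMP45 (1.31) beside HBT1. The remaining genes were YKL107W (1.90), an aldehyde reductase, YDL218W (1.84) and FMP48 (1.76). Without DGY1743 replicate 2, 6 of the 10 stayed called, and ANS1, GRE1 (0.0817), SIP18 (0.0529) and YMR175W-A (0.0538) did not. PAI3 was lost there as well (0.0724). With a replicate block GRE1 (0.294) and YDL218W (0.113) lost their calls.

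**Figure D4:**
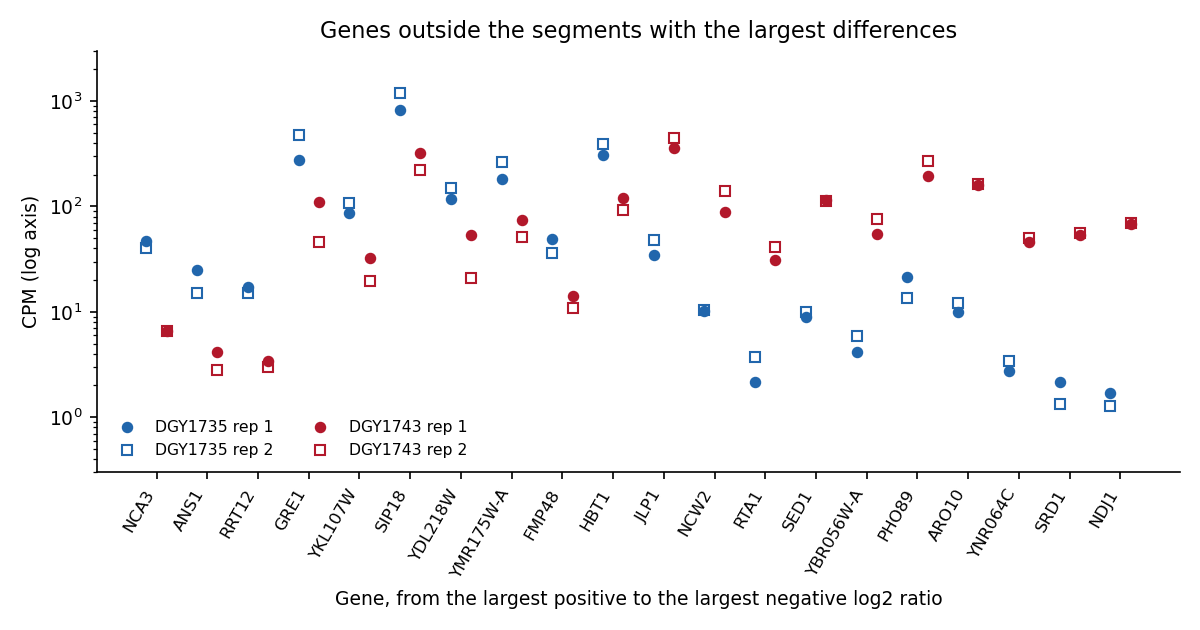
CPM (log axis) in each library of the 20 genes with the most extreme log2 ratios outside the segments, 10 higher and 10 lower in DGY1735. The genes were picked among called genes whose libraries do not overlap between the strains, so that their separation was set by the choice. NDJ1, at the right, had 1.70 and 1.27 CPM in DGY1735 and 67.5 and 69.8 CPM in DGY1743.

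Nitrogen supply is what limits growth in these chemostats, and the lists of nitrogen genes are given by their roles. Of 22 tested amino acid and peptide permeases, 8 were lower and 1 was higher, with a median of -0.34. Outside the segments the largest difference was that of DIP5, the permease of glutamate and aspartate, with 165 and 274 CPM in DGY1735 against 2004 and 1466 CPM in DGY1743 (-2.98, SE 0.282). AGP1, a broad-range permease, had 43.0 and 36.9 CPM in DGY1735 against 124 and 124 CPM in DGY1743 (-1.64, SE 0.132). HIP1, the histidine permease, was higher, with 165 and 121 CPM in DGY1735 against 83.0 and 91.4 CPM in DGY1743 (0.71, SE 0.163). With each library left out in turn, 7 to 9 permeases were called lower, whereas HIP1 was called only with DGY1735 replicate 2 left out. PTR2 and GAP1 of this list lie in the stretch amplified in both strains.

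In the list of allantoin and urea use, 4 of 11 genes were called, all lower, with a median of -0.38. DAL4, the allantoin permease, had 23.1 and 26.9 CPM in DGY1735 against 61.5 and 51.7 CPM in DGY1743 (-1.18, SE 0.158). DUR3, the urea importer, had 148 and 160 CPM in DGY1735 against 368 and 281 CPM in DGY1743 (-1.07, SE 0.15). DAL5, the importer of allantoate, had 1162 and 1446 CPM in DGY1735 against 3081 and 2584 CPM in DGY1743 (-1.12, SE 0.204). The libraries did not overlap, but DAL5 lost its call without either DGY1743 library (0.0648 and 0.056), and 2 genes of the list were called without DGY1743 replicate 2. DAL4 lies on chromosome IX and was lower against the direction of that chromosome.

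Of 9 genes of arginine, proline and GABA breakdown, 3 were lower and 2 higher. PUT1, proline oxidase, had 377 and 441 CPM in DGY1735 against 1475 and 1520 CPM in DGY1743 (-1.87, SE 0.159). UGA2, succinate semialdehyde dehydrogenase of the GABA route, had 275 and 344 CPM in DGY1735 against 189 and 177 CPM in DGY1743 (0.76, SE 0.138), and lost its call without either DGY1743 library. PUT2, the next enzyme of proline use, was lower with a log2 ratio of -0.79 and was lost without DGY1743 replicate 1 (0.0601). The other called genes, of arginine breakdown, were CAR1 (-0.63), arginase, and CAR2 (0.75), ornithine transaminase, and both were lost when any library other than DGY1735 replicate 2 was left out.

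The regulators and the ammonium genes moved little. None of the 5 nitrogen GATA factor and URE2 genes was called by edgeR, whereas 2 had an unadjusted p under 0.05 and DESeq2 called 2. GLN3, GAT1 and URE2 had log2 ratios of 0.07, -0.03 and 0.01, and GZF3 had -0.53. DAL80 and GZF3 were lower without DGY1735 replicate 2 (edgeR adjusted p 0.00718 and 0.000589). Of 8 genes of ammonium uptake and of glutamate and glutamine metabolism, 1 was higher. GDH3, a glutamate dehydrogenase isoform, had 133 and 168 CPM in DGY1735 against 81.1 and 81.8 CPM in DGY1743 (0.89, SE 0.14), and was not called without either DGY1743 library (0.0544 and 0.0663). MEP2, the high-affinity ammonium permease, had 2952 and 3867 CPM in DGY1735 and 5525 and 5057 CPM in DGY1743 (-0.63, edgeR adjusted p = 0.11), and DESeq2 called it (0.0021).

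GATAAG was found within 300 bases before the start codon of 8 of the 11 allantoin and urea genes (72.7%), as in the DAL4 sequence above, and of 7 of the 22 permeases (31.8%). The share was 14.6% among all 6572 nuclear genes, 25.2% among the 493 lower genes and 12.4% among the 339 higher genes. Among genes that differed by at least 2-fold, it was 18.8% of the 133 lower and 9.52% of the 63 higher ones. These shares are descriptions of the sequence and were not tested.

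Among the stress lists more genes were higher than lower in DGY1735. Of 20 chaperone genes, 9 were called, all higher, and all 20 ratios were positive, with a median of 0.57 against 0.00 for nuclear genes outside the segments. SSE2, a nucleotide exchange factor of Hsp70, had 498 and 575 CPM in DGY1735 against 309 and 234 CPM in DGY1743 (0.98, SE 0.165). SSA3, a stress-inducible Hsp70, had 486 and 600 CPM in DGY1735 against 294 and 166 CPM in DGY1743 (1.24, SE 0.255). SSA1, a further Hsp70, had a log2 ratio of 0.92, but 57.9% of its stretches of 50 bases, the length of a read, occur elsewhere in the genome. No chaperone was called without DGY1743 replicate 2, 4 were without DGY1743 replicate 1, and DESeq2 called 16.

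Of 18 hydrophilins and small stress proteins, 7 were higher and 2 lower, with a median of 0.56. Beside GRE1 and SIP18, DDR2, a small stress protein, had 142 and 182 CPM in DGY1735 against 80.3 and 55.7 CPM in DGY1743 (1.25, SE 0.198). HOR7, a plasma membrane protein of unclear function, was lower, with 470 and 508 CPM in DGY1735 against 950 and 1050 CPM in DGY1743 (-1.03, SE 0.144). TMA10, a small protein found with ribosomes, was lower too, with a log2 ratio of -0.75. None of the 7 higher genes was called without DGY1743 replicate 2, while both lower genes were.

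Of 19 genes of peroxide and superoxide defence, 5 were called, all higher, with a median of 0.26. CTT1, cytosolic catalase, had 665 and 984 CPM in DGY1735 against 338 and 225 CPM in DGY1743 (1.55, SE 0.248). AHP1, a thiol peroxidase, and HYR1, a glutathione peroxidase on chromosome IX, had log2 ratios of 0.81 and 0.84. Without DGY1743 replicate 2, 1 gene of the list was called and these 3 were not (CTT1 0.0871, AHP1 0.135 and HYR1 0.0729). In the trehalose and glycogen list 3 of 18 genes were higher and 1 lower, against 6.3% and 9.17% of nuclear genes outside the segments. The list median was 0.25. TPS2, trehalose phosphatase, had a log2 ratio of 0.60, GDB1, the glycogen debranching enzyme, 0.55, and TSL1, a subunit of trehalose synthase, 0.56. PGM1, a phosphoglucomutase, was lower (-0.49), and was lost without DGY1735 replicate 1 (0.176) or without DGY1743 replicate 2 (0.111). None of the 3 higher genes of this list was called without DGY1743 replicate 1 or without DGY1743 replicate 2.

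AGGGG, shown for DDR2 above, occurred before 11 of the 18 hydrophilin genes (61.1%) and 13 of the 19 peroxide genes (68.4%). It occurred before 22.1% of all nuclear genes, 31.6% of the 339 higher genes and 46% of the 63 that were higher by at least 2-fold. Among the lower genes the shares were 22.1% of all 493 and 16.5% of the 133 that were lower by at least 2-fold. The window of 300 bases before GRE1 and SIP18 held no AGGGG.

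Of 17 glycolytic genes, 6 were higher and 1 was lower, with a median of 0.58. TDH2, a glyceraldehyde-3-phosphate dehydrogenase, had 2622 and 2249 CPM in DGY1735 against 1312 and 1013 CPM in DGY1743 (1.07, SE 0.201). TDH1, its stress-linked isoform, had 1070 and 945 CPM in DGY1735 against 566 and 403 CPM in DGY1743 (1.06, SE 0.191). Neither TDH2 (adjusted p 0.107) nor TDH1 (0.0828) was called without DGY1743 replicate 2. These isoforms share sequence with TDH3, and 31.3% and 15.7% of the stretches of 50 bases in TDH2 and TDH1 occur elsewhere. PGK1, phosphoglycerate kinase, had 7767 and 7349 CPM in DGY1735 against 3989 and 3739 CPM in DGY1743 (0.97, SE 0.234), and was not called when any 1 of the 4 libraries was left out (adjusted p 0.0581 to 0.152). HXK2, the main hexokinase on glucose, was lower, with 417 and 333 CPM in DGY1735 against 605 and 590 CPM in DGY1743 (-0.67, SE 0.148), and lost its call without either DGY1743 library. The 6 higher calls became 1 without DGY1743 replicate 2 and 3 without DGY1743 replicate 1, and DESeq2 gave 11.

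Of 15 genes of gluconeogenesis and the glyoxylate cycle, 5 were called, all higher, with a median of 0.33. PCK1 was the largest of them and lies in the stretch amplified in DGY1735 only. SFC1, which exchanges succinate for fumarate across the mitochondrial membrane, had 31.3 and 36.1 CPM in DGY1735 against 10.8 and 13.5 CPM in DGY1743 (1.48, SE 0.187). SIP4, an activator of gluconeogenic genes, had a log2 ratio of 0.75 and lost its call when any library other than DGY1735 replicate 1 was left out (adjusted p 0.0619 to 0.13). The list had 2 calls without DGY1743 replicate 2 and 3 without DGY1735 replicate 2. Of 10 hexose transporters, 1 was higher, HXT5, the transporter of slow growth, with 1791 and 1801 CPM in DGY1735 against 913 and 773 CPM in DGY1743 (1.09, SE 0.167). It was lost without DGY1743 replicate 2 (0.0704), and 5 transporters were higher without DGY1735 replicate 2.

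**Figure D5:**
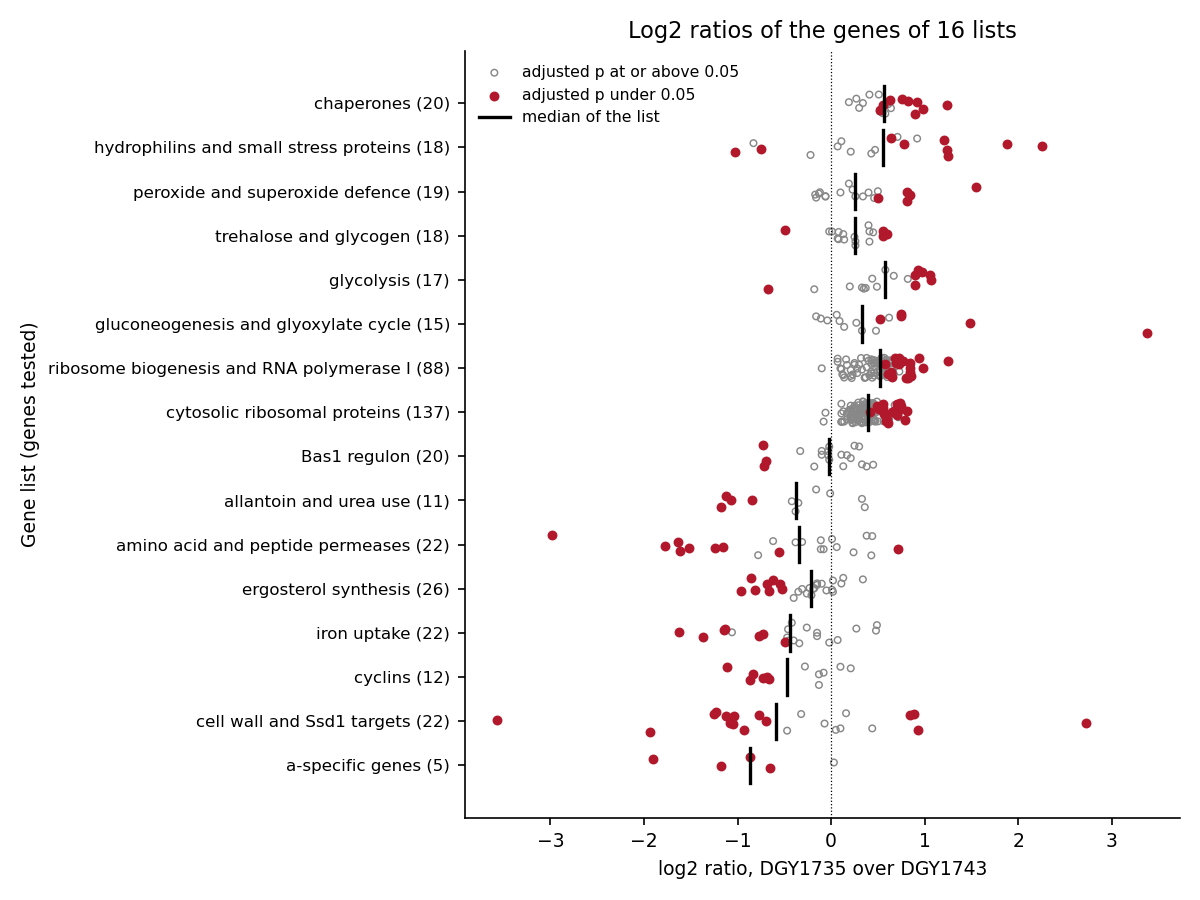
Log2 ratio of DGY1735 over DGY1743 for every tested gene of 16 lists, with called genes filled and the list median as a black bar. Chaperones (median 0.57), ribosome biogenesis genes (0.52) and glycolytic genes (0.58) lie to the right of 0, and a-specific genes (-0.87), cell wall genes (-0.59) and cyclins (-0.47) to the left.

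Genes of protein synthesis had small, mostly positive ratios. Of 88 genes of ribosome biogenesis and RNA polymerase I, 19 were called, all higher, and 87 of the 88 ratios were positive, with a median of 0.52. NSR1, a nucleolar protein of ribosomal RNA processing, had 1559 and 988 CPM in DGY1735 against 522 and 546 CPM in DGY1743 (1.25, SE 0.223). The library medians of the list were 0.51 and 0.01 in DGY1735, against -0.26 and -0.21 in DGY1743, with DGY1735 replicate 1 far above the other 3 libraries. Without DGY1735 replicate 1, 6 genes were called and the median was 0.24, and without DGY1735 replicate 2, 69 and 0.76. In contrast, 1 gene was called without DGY1743 replicate 1, and none without DGY1743 replicate 2. NSR1, MAK16 (0.98), a factor of the large subunit, and NOP1 (0.94), which methylates ribosomal RNA, each lost their calls without either DGY1743 library. GATGAG, shown for NSR1 above, occurred before 72 of the 88 genes (81.8%), against 18.5% of all nuclear genes. It occurred before 29.8% of the 339 higher and 12.6% of the 493 lower genes. Among genes that differed by at least 2-fold, it occurred before 19% of the 63 higher and 18% of the 133 lower ones.

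Of 137 cytosolic ribosomal protein genes, 23 were called, a share close to the 15.5% of nuclear genes outside the segments. All 23 were higher, whereas 6.3% of those nuclear genes were. Of the ratios of the list 135 were positive, with a median of 0.39. The library medians of the list were 0.31 and 0.07 in DGY1735, against -0.20 and -0.20 in DGY1743. The count was 11 without DGY1735 replicate 1, 66 without DGY1735 replicate 2 and 16 without DGY1743 replicate 1. No gene of the list was called without DGY1743 replicate 2, and DESeq2 called 54. RPL5 (0.81), RPL8A (0.79) and RPL8B (0.75), proteins of the large subunit, had the largest ratios among the called genes. Of 34 proteasome subunit genes, 1 was lower, RPN10 (-0.54), a ubiquitin receptor, which was lost without DGY1735 replicate 1 or without DGY1743 replicate 2. The median of the proteasome list was -0.21.

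Cell surface genes moved in both directions. Of 22 genes of the cell wall and of known Ssd1 targets, 11 were lower and 4 higher, with a median of -0.59, and 8 to 11 were called lower with each library left out in turn. HSP150, a covalently linked wall protein, had 72.3 and 66.7 CPM in DGY1735 against 272 and 261 CPM in DGY1743 (-1.94, SE 0.11). SCW10, a wall glucanase, had 24.6 and 25.6 CPM in DGY1735 against 47.5 and 72.4 CPM in DGY1743 (-1.25, SE 0.209). CWP2, a mannoprotein of the wall, was higher, with 191 and 205 CPM in DGY1735 against 104 and 103 CPM in DGY1743 (0.93, SE 0.106). YGP1, a secreted glycoprotein, was higher by 0.89 and lost its call without either DGY1743 library (0.0719 and 0.128). The number of higher genes was 2 without DGY1743 replicate 1 and 2 without DGY1743 replicate 2. SSD1 itself did not pass the test, as given above.

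Of 26 genes of ergosterol synthesis, 8 were called, all lower, with a median of -0.22. ERG27, 3-keto sterol reductase, had 138 and 138 CPM in DGY1735 against 246 and 256 CPM in DGY1743 (-0.86, SE 0.104). ERG26 and ERG28, which act in the same demethylation steps, had log2 ratios of -0.81 and -0.96. Without DGY1743 replicate 1, 4 of the 26 were called, and without DGY1743 replicate 2, 5. Of 17 hypoxic and heme-regulated genes, 4 were called, all higher, with a median of 0.20. ROX1, the repressor of hypoxic genes, had 170 and 107 CPM in DGY1735 against 49.4 and 52.6 CPM in DGY1743 (1.43, SE 0.214). No gene of this list was called without either DGY1743 library (ROX1 0.0756 and 0.0869), and 2 were without DGY1735 replicate 1.

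Of 22 genes of the iron regulon, 7 were called, all lower, with a median of -0.44. FRE1, the main cell surface ferric reductase, had 14.3 and 17.6 CPM in DGY1735 against 39.9 and 59.6 CPM in DGY1743 (-1.63, SE 0.225). HMX1, heme oxygenase, had 16.7 and 21.4 CPM in DGY1735 against 51.7 and 47.3 CPM in DGY1743 (-1.37, SE 0.168). TIS11, which destabilises mRNAs of iron-using proteins, had a log2 ratio of -1.15. The count of lower genes was 9 without each of DGY1735 replicate 1, DGY1735 replicate 2 and DGY1743 replicate 1, and 4 without DGY1743 replicate 2, where TIS11 was lost (0.0584).

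Of 19 phosphate genes, 3 were lower and 1 was higher, against 9.17% and 6.3% of nuclear genes outside the segments. The list median was -0.27. The lower ones were PHO89, PHO8 (-0.69), a vacuolar phosphatase, and VTC2 (-0.51), of polyphosphate synthesis, and the higher one was PHM7 (0.57). PHO89 alone was called without DGY1743 replicate 2. Of 25 genes of sulfate assimilation and methionine synthesis, 2 were called, both lower, a share below the 15.5% of nuclear genes outside the segments. MHT1, S-methylmethionine methyltransferase, had 45.8 and 51.4 CPM in DGY1735 against 122 and 119 CPM in DGY1743 (-1.30, SE 0.126). Its neighbour MMP1, the importer of S-methylmethionine, was lower as well (-1.16). Among 55 genes of amino acid synthesis other than histidine, 10 were lower and 5 higher, against 9.17% and 6.3% of nuclear genes outside the segments. The list median was 0.05. The lower ones included ARO10 and transaminases of the Ehrlich pathway, by which amino acids serve as nitrogen source. The count is thus not one of synthesis genes alone. ARO9 had 18.3 and 19.2 CPM in DGY1735 against 67.1 and 59.5 CPM in DGY1743 (-1.75, SE 0.144). BAT2, the cytosolic branched-chain transaminase, had 154 and 183 CPM in DGY1735 against 531 and 445 CPM in DGY1743 (-1.53, SE 0.148). LEU2, of leucine synthesis, was higher, with 224 and 237 CPM in DGY1735 against 133 and 133 CPM in DGY1743 (0.79, SE 0.104). Without DGY1743 replicate 2, 6 genes of this list were lower and 1 was higher, and without DGY1735 replicate 2, 9 were higher.

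Mating and meiotic genes were also compared. FY4 strains are of mating type a, and 4 of the 5 tested a-specific genes were lower in DGY1735, with a median of -0.87. MFA1, a precursor of a-factor, had 12.03 and 12.4 CPM in DGY1735 against 44.4 and 46.8 CPM in DGY1743 (-1.90, SE 0.154). STE2, the receptor of α-factor, had 109 and 110 CPM in DGY1735 against 252 and 248 CPM in DGY1743 (-1.18, SE 0.103). STE6, the a-factor exporter, and BAR1, the protease that degrades α-factor, had log2 ratios of -0.65 and -0.87, and AXL1, which did not pass the test, had 0.03. BAR1 was lost without DGY1735 replicate 1 and without DGY1743 replicate 1, leaving 3 called genes in either case. The α-specific genes STE3 and SAG1 were the only 2 of their list that could be tested. Neither was called by edgeR or DESeq2 or had an unadjusted p under 0.05, with log2 ratios of 0.26 and 0.06. Of 9 haploid-specific genes, 2 were lower, HO (-0.54) and GPA1 (-0.40), and none was called when any 1 of DGY1735 replicate 1, DGY1743 replicate 1 and DGY1743 replicate 2 was left out.

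Of 16 early meiotic and Ume6-regulated genes, 5 were lower and 1, MND2 on chromosome IX, was higher, with a median of -0.31. Beside NDJ1, MND1, a recombination factor, had 7.15 and 9.26 CPM in DGY1735 against 21.8 and 24.9 CPM in DGY1743 (-1.49, SE 0.208), and INO1, inositol phosphate synthase, had a log2 ratio of -1.17. MND2, a subunit of the anaphase-promoting complex, was the higher gene (0.64) and lost its call when any 1 of the 4 libraries was left out (adjusted p 0.0736 to 0.129). Without DGY1743 replicate 2, 3 genes of the list were lower. MND1 overlaps another reading frame on its strand, with which it shares reads. NDJ1 and MND1, the latter with 63 and 117 counts in DGY1735, passed the count filter only through DGY1743. Of 12 cyclin and cell cycle genes, 6 were called, all lower, with a median of -0.47. SWI5, the activator of genes at mitotic exit, had 31.9 and 29.4 CPM in DGY1735 against 62.3 and 70.0 CPM in DGY1743 (-1.11, SE 0.139). CLB1 and CLB2, the mitotic B-type cyclins, had log2 ratios of -0.87 and -0.84. With each library left out in turn, 4 to 6 genes of this list were called lower. Of the 10 histone genes none was called by edgeR, 4 had an unadjusted p under 0.05 and DESeq2 called 2.

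Of 23 genes of autophagy and vacuolar hydrolases, 5 were called, all lower, among them ATG5 (-0.78), which conjugates to Atg12, and PRB1 (-0.53), a vacuolar protease just inside the threshold (edgeR adjusted p = 0.0499). The median was -0.11, and 1 gene was lower without each of DGY1735 replicate 1, DGY1743 replicate 1 and DGY1743 replicate 2. Of 16 genes of peroxisomes and fatty acid oxidation, POT1 was higher and FOX2 lower, with a median of 0.09. Of 4 genes of IMP dehydrogenase and guanine synthesis, GUA1 was higher (0.76) and IMD2 lower (-1.09). Neither was called without DGY1743 replicate 1 or without DGY1743 replicate 2, GUA1 was lost without DGY1735 replicate 1 (0.0744), and 3 genes of the list were higher without DGY1735 replicate 2. In IMD2, 33.7% of the stretches of 50 bases occur elsewhere in the genome.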

How the data were processed

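RNA-seq libraries of 2 cultures per strain were sequenced by the authors as single reads of 50 bases. Adapters were trimmed with cutadapt, reads were aligned with STAR after removal of non-coding RNA reads, and strand-specific counts per gene of the R64 annotation were made with bedtools. The deposited values are these raw counts, with no normalization by the authors. A read over overlapping genes is counted for each of them, and the treatment of reads with several alignments is not given in the sources used here. The labels name polyA RNA, whereas the study's methods describe no poly-A selection.

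The 28 mitochondrial genes were kept out of library totals and scaling. Tests were run on protein-coding genes that averaged 100 counts or more across the 4 libraries, with edgeR 4.0.16 (R 4.3.3), using TMM factors, the robust quasi-likelihood F-test and Benjamini-Hochberg adjustment over all 5500 genes. The biological coefficient of variation was 0.112. The threshold was an adjusted p of 0.05. SE is the absolute log2 ratio divided by the square root of F. No exact permutation test of a single gene was used, since 2 against 2 libraries cannot give a p below 0.333. The test was tested on simulated data. Genes off the median of a segment were tested with that median as an offset.

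Alternatives were DESeq2 1.42.0, RLE factors, mitochondrial genes in the scaling, other count filters, a replicate block, no robust estimation, and each library left out in turn. A block with the replicate numbers of 1 strain exchanged, and the alternatives for chromosome IX, were added after seeing the data. The 40 gene lists hold 889 distinct tested genes, and 11 entries were matched through a RefSeq synonym and 1 not at all. The comparison, its members and the lists were chosen with earlier results of these data known. The naming rule took in GAP1, genes of the segments and the 4 most abundant mitochondrial genes. Outside the segments it took the 10 largest ratios each way among called genes whose libraries did not overlap. From the lists it took up to 3 called genes each way, and all members of small lists, of the Bas1 list and of the retrograde list. It gave 160 tested genes, not all of which are given in the text. Upstream sequences are from the R64 RefSeq genome, and the motif search covered 300 bases before the start codon on both strands. The 150 bases next to the start codon are not printed.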

Additional observations from a re-analysis of the deposited data

How the results depend on the processing

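With 2 cultures per strain the count of genes that differ depends strongly on single libraries. It ranged from 299 to 1068 with each library left out in turn (884 with all 4), and from 252 to 1008 outside the chromosome XI segments (832). It was 244 at a difference of at least 2-fold and 318 at an adjusted p under 0.01. Calls over the gene lists were 197 in all, 296 with DESeq2, and 65 to 304 with each library left out. Genes off the median of the stretch amplified in DGY1743 only were 3 with DESeq2, 2 without robust estimation, and 0 to 1 with each library left out (1 with all 4).

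Segment medians moved little. With each library left out, the median was -1.72 to -1.62 where only DGY1743 was amplified, 1.84 to 1.92 where only DGY1735 was, 0.30 to 0.32 on chromosome IX, and -0.0353 to 0.0309 in the shared stretch (main value 0.00567), where it was -0.00352 without DGY1735 replicate 2. Means in place of medians gave -0.103 for the shared stretch, 2.06 for the stretch amplified in DGY1735 only and 0.26 for chromosome IX. Chromosome IX gave 0.27 with edgeR's own count filter, 0.27 with none and 0.32 without its leftmost 11 genes. Of 520 list medians under alternatives, 28 moved by more than the spread between replicates.

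Of 160 tested genes named, 135 were called, 70 of them in every alternative. Signs changed only for genes that did not pass the test. With each library left out in turn, the log2 ratio ranged from -0.04 to 0.14 for SSD1, from -0.16 to 0.13 for ALY1 (0.03 without DGY1735 replicate 1, 0.00 with no count filter), from -0.00 to 0.14 for GLN3, from -0.30 to 0.19 for GAT1, from -0.06 to 0.09 for URE2, from -0.10 to 0.23 for SAG1, from -0.04 to 0.10 for AXL1, from -0.11 to 0.03 for ADH3 and from -0.49 to 0.01 for IDH1.

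The replicate numbers did not pair the libraries: the deviations of same-numbered libraries correlated at -0.253 across 5500 genes. A replicate block gave 892 genes. A block with the numbers of 1 strain exchanged, added after seeing the data, gave 1385 genes in all, 1321 outside the segments, 342 calls over the lists and 4 genes off the segment median. RRT12 and ANS1 fell below the count filter when either DGY1735 library was left out. The cause of these shifts was not tested.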
